A study of Mus musculus with 16 samples.

Results

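Mast cells release exosomes, small membrane vesicles of endosomal origin that carry protein and RNA and can hand both to other cells. The RNA of a vesicle need not mirror the RNA of the cell that released it, since loading, RNA length and decay can all differ between the compartments. On an oligonucleotide array a transcript is read by a probe set, a group of short probes, and RNA that resembles the intended target can also bind to them. The probe sets described here lie at the far corner of this system: they were bright on every array of exosomal RNA and dark on every array of cellular RNA.

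Of 45037 probe sets, 130 had a signal above 300 on all 8 exosome arrays and below 50 on all 8 cell arrays, which is 0.289% of the array. The exosome condition was met by 757 probe sets and the cell condition by 28590. The 130 thus made up 17.2% of the first set and 0.455% of the second. The opposite pattern, above 300 on all 8 cell arrays and below 50 on all 8 exosome arrays, was met by 36 probe sets. The members were chosen by their exosome and cell signals themselves, so every exosome-to-cell value below is a description with no test.

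The RNA came from the mouse mast cell line MC/9 and from the exosomes it released, in 4 groups of 4 arrays. The exosome groups were norm exo, from cells kept under normal conditions, and oxi exo, from cells kept with 125 µM H2O2 for 24 h. The cell groups were norm cell and oxi cell. The sample labels describe the cell RNA as that of cells given exosomes of the matching condition, whereas the study's methods treat it as that of donor cells, and what the cells had received cannot be told apart from the labels. All samples come from 1 cell line, grown with serum and a conditioned rat growth supplement. The study states that both supplements hold exosomes of their own and were ultracentrifuged to take these out. The study speaks of different cultures for a pair of replicates of norm cell and of norm exo. For the other arrays the origin of the replicates is not given in the sources used here, so p-values measure the spread between these arrays, part of which may be technical.

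The deposited MAS5.0 signals were on a linear scale, with the trimmed mean of every array set to 100. This scaling placed most of an exosome array higher than a cell array. The signal of the median probe set lay between 76.6 and 81.2 in norm exo, between 81.2 and 84.0 in oxi exo, between 13.2 and 15.0 in norm cell and between 11.1 and 12.7 in oxi cell. Background was taken, for each array, as the 95th percentile of 312 probe sets for 242 tissue-restricted genes, and it ran from 218 to 262 on exosome arrays and from 13.3 to 20.8 on cell arrays. Above it lay 6.81% to 10.9% of all probe sets on exosome arrays and 44.5% to 48.2% on cell arrays.

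The mast cell identity of both kinds of RNA was checked first. Fcer1a, which encodes the IgE-binding chain of the receptor for IgE, had signals of 10917 ± 826 in norm cell and 1719 ± 439 in norm exo (mean ± SD, n = 4 each). It lay above background on all 16 arrays. Ms4a2, the beta chain of the same receptor, and Cpa3, the mast cell carboxypeptidase, exceeded background on 8 of 8 cell arrays and on 6 of 8 exosome arrays. Kit, the stem cell factor receptor, did so on 8 of 8 cell arrays and on 0 of 8 exosome arrays. No probe set of the 31 mast cell genes examined was among the 130.

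The 130 probe sets spanned a wide range of brightness in exosomes. Their lowest signal over the 8 exosome arrays ran from 300.3 to 5431, with a median of 413 and quartiles of 346 and 584. It exceeded 400 for 70 probe sets, 500 for 43 and 1000 for 16. The mean signal over the 8 cell arrays ran from 1.44 to 39.6, with a median of 13.7. The ratio of the exosome mean to the cell mean had a median of 51.4 and ran from 12.3 to 489.

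Ranks within an array followed from the same signals and add no support, since 300 already lay at percentile 94.0 to 95.4 of the exosome arrays and 50 at percentile 66.0 to 68.1 of the cell arrays. The typical member stood at percentile 98.4 of the exosome arrays, with a range of 95.6 to 99.96 over members. On the cell arrays the typical member stood at percentile 49.8, with a range of 6.92 to 64.6. The members were thus near the top of the exosome arrays and around the middle or below on the cell arrays, where the middle itself lay close to background.

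The brightest member was 1420310_at, a probe set without a gene symbol. Its signals were 6209, 5431, 7619 and 7888 in norm exo and 7220, 7000, 7766 and 8340 in oxi exo. In cells they were 35.0, 15.7, 49.9 and 7.9 under normal conditions and 6.9, 14.6, 23.3 and 25.5 with H2O2. The exosome values stayed within a narrow band, while the cell values scattered around background.

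The next probe set, 1458382_a_at, also had no symbol and was the least even of the leading members. It read 3623, 3799, 9569 and 8387 in norm exo and 9099, 7320, 8753 and 12766 in oxi exo, so replicates 1 and 2 of norm exo lay well below the other 6 arrays. Its cell signals lay between 13.3 and 43.5.

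Most of the other leading probe sets were likewise unnamed. The 1437534_at signals ran from 3135 to 5132 over the exosome arrays and from 1.5 to 30.1 over the cell arrays. For 1437867_at the exosome signals were 2605 to 4332, and for 1458543_at they were 2509 to 4627. In 1458543_at every oxi exo array, at 2509 to 2909, lay below every norm exo array, at 3146 to 4627. The probe sets 1447329_at, 1417838_at, 1460084_at, 1442120_at, 1457657_at and 1460582_x_at followed, with lowest exosome signals of 1906, 1635, 1578, 1537, 1176 and 1113. Among the 12 brightest, only Gm3715 had a symbol, a gene model whose name says nothing of its function. Its norm exo signals were 1691 to 2025, its oxi exo signals 1151 to 1633 and its cell signals 0.9 to 12.1.

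**Figure D1:**
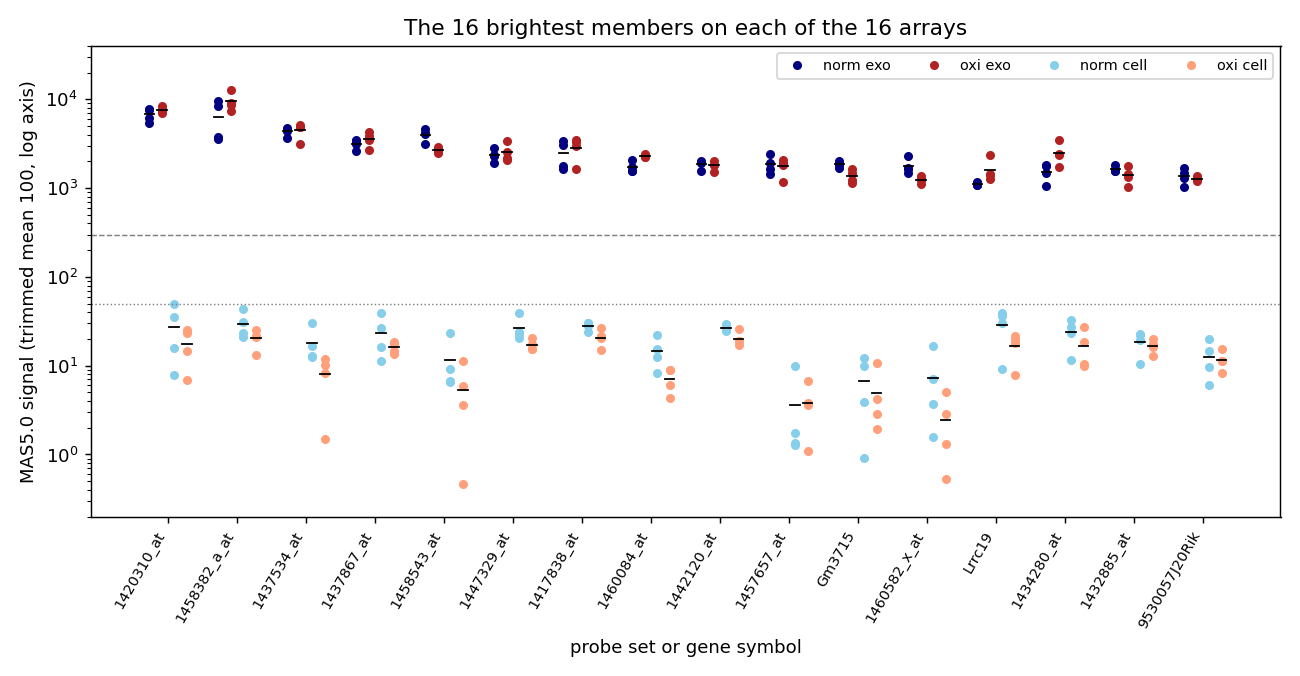
MAS5.0 signal (log axis) of the 16 members with the highest lowest exosome signal on each of the 16 arrays. Points are arrays, black bars are group means of 4 arrays, and the dashed and dotted lines mark signals of 300 and 50. The lowest exosome signal of each of the 16 exceeded 1000, and the cell signals scattered below 50.

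The brightest member with a symbol and a known product was Lrrc19, a leucine-rich repeat membrane protein of epithelia. Its signals were 1081, 1083, 1158 and 1164 in norm exo and 1416, 2340, 1433 and 1264 in oxi exo. All 4 oxi exo arrays lay above all 4 norm exo arrays, and the cell arrays read 7.9 to 38.9. The log2 change with H2O2 in exosomes was 0.48 (SE 0.20, adjusted p = 0.443 in limma). The other Lrrc19 probe set, 1434915_s_at, had a median exosome signal of 74.8 and exceeded background on 0 of 8 exosome arrays.

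Members at the edges of the rule differed little from probe sets just outside it. On the exosome side the last members were 1459947_at with a lowest signal of 300.3, Mm2pr with 300.6, 1444457_at with 307, 1454457_at with 308 and Zfp943 with 313. Left out by a hair were 1419880_x_at with 299.96, Pramel34 with 299.8, 1451699_at with 299.3, 1447939_a_at with 298.7 and 1442327_at with 298.6.

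On the cell side the members nearest the limit were 1420310_at with a highest cell signal of 49.9, Ccdc12 with 49.5, Phgdh with 48.6, Sema6c with 47.7 and Nxph3 with 46.6. Just outside were a second Phgdh probe set with 50.3, Ighm with 50.7, 1446017_at with 51.0, Klf3 with 52.2 and Egfr with 52.7. The 1446017_at probe set had a lowest exosome signal of 4009, higher than that of all but 1 of the members, and missed the cell limit by about a unit.

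The 130 differed from the rest of the array in their annotation. The platform annotation gave exactly 1 gene symbol to 57 of them, several symbols to 6 and no symbol to 67. A probe set without a symbol was thus found in 51.5% of members and in 20.3% of all probe sets, and a probe set with 1 symbol in 43.8% and 77.6%. Without a symbol does not mean without a gene: the annotation used here simply did not name one.

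The named members were also of another kind than the array at large. Of the 57 with 1 symbol, 40 were protein-coding, or 70.2% against 93.7% of all probe sets with 1 symbol. Long non-coding RNAs accounted for 12 of the 57, or 21.1% against 4.80%. A further 2 were transcribed pseudogenes, 1 was a miscellaneous RNA, 1 an immunoglobulin V segment and 1 was not matched. Non-coding RNAs and pseudogenes together came to 15 of 57, which is 26.3% against 5.51%. Symbols that are only clone or gene model names were borne by 14 of the 130, or 10.8% against 5.36%.

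The protein-coding members were scattered over many roles. Nes and Ina encode intermediate filament proteins of the nervous system, Nrxn3 a presynaptic adhesion receptor, Nxph3 a secreted neurexin ligand and Sema6c a guidance molecule. Their lowest exosome signals were 495, 321, 481, 342 and 345. Cd59a, an inhibitor of complement, reached 363, and Cxcl1, a neutrophil chemokine, 327. Map3k14, a kinase of the non-canonical NF-kB pathway, had 351, and Sfrp4, a secreted Wnt antagonist, 318. Other probe sets of Nes had median exosome signals of 49.7 and 18.8, and those of Ina 82.8 and 37.0. For Sema6c the medians were 65.4 and 40.4, for Cd59a 49.2 and for Map3k14 33.6. For Cxcl1 they were 421 and 94.8, and those of Nrxn3 follow below.

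Probe sets for some regulators of RNA and transcription were also among the members. Ago3, an Argonaute protein that binds small RNAs, had exosome signals of 361 to 575, and Polr2e, a subunit shared by the RNA polymerases, 330 to 556. Prdm16, a transcriptional regulator of brown fat, ran from 370 to 617, while its other probe sets had median exosome signals of 26.8 to 132. Stox2, a winged-helix protein, ran from 606 to 1829. No examined gene list held any of these. The lists for mast cells, T and B lymphocytes, erythroid cells, macrophages and neutrophils, fibroblasts and endothelium, liver and serum proteins, NRF2 targets, antioxidant enzymes, p53 targets and cytosolic ribosomal proteins held 0 members.

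The ribosomal protein list shows what the 130 were not. Of its 101 probe sets, 58 were above 300 on all 8 exosome arrays, or 57.4%, but none of the 58 met the cell condition. Of the 21 probe sets for B lymphocytes and the 18 for macrophages and neutrophils, 0 met the exosome condition, and of the 32 for T lymphocytes 1 did. The 8 exosome arrays read Cd3d, Cd79a, Alas2, S100a9, Col1a1 and Alb below background throughout, and Csf1r, a macrophage receptor, above it on 4 arrays.

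Genes restricted to other tissues gave 2 members. Of the 312 probe sets in this list, which also set the background, 3 met the exosome condition, or 0.962%, against 1.68% of all probe sets. Psg28, a pregnancy-specific glycoprotein of the placenta, read 538, 529, 571 and 885 in norm exo and 625, 614, 874 and 1063 in oxi exo. Vmn1r148, a vomeronasal pheromone receptor, read 700, 491, 631 and 662 in norm exo and 553, 545, 502 and 767 in oxi exo. Both lay above background on all 8 exosome arrays. On the cell arrays they read 13.0 to 31.3 and 3.3 to 11.6.

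Probe set suffixes record how selective the probes were designed to be. A plain _at set is meant to be specific to its transcript, _a_at sets cover transcripts of a gene, _s_at sets are shared by transcripts of different genes, and _x_at sets hold probes that are alike to other sequences. Of the members, 105 were plain _at sets, or 80.8%, and this share was 80.1% over the array. The _x_at sets numbered 16, or 12.3% against 5.42%. The _a_at sets numbered 4, or 3.08% against 9.83%, and the _s_at sets 5, or 3.85% against 4.64%.

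The contrast with the other bright probe sets of exosomes was larger. Of the 627 probe sets that were above 300 on all 8 exosome arrays but not dark in cells, 32.4% were plain _at sets, 25.5% were _a_at, 9.89% were _s_at and 32.2% were _x_at. No symbol was given to 58 of the 105 plain _at members and to 8 of the 16 _x_at members, but to 1 of the 4 _a_at and 0 of the 5 _s_at members. The median of the lowest exosome signal was 416 in _at, 380 in _x_at, 379 in _a_at and 606 in _s_at members.

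**Figure D2:**
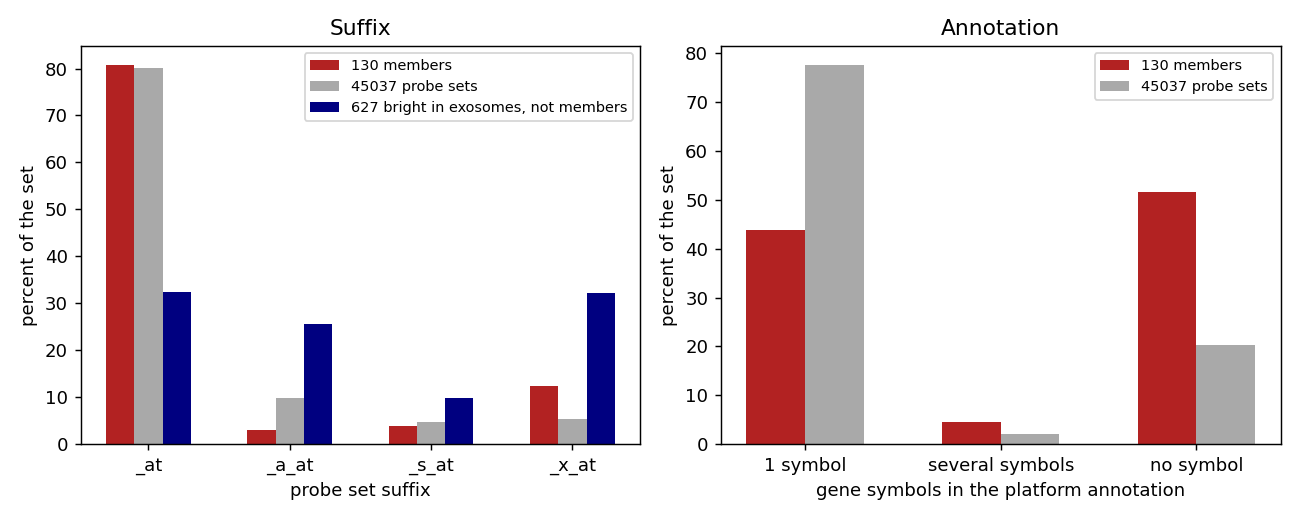
Share of probe sets by suffix (left, percent) and by number of gene symbols in the platform annotation (right, percent), for the 130 members, all 45037 probe sets and, on the left, the 627 other probe sets above 300 on all 8 exosome arrays. Members had plain _at suffixes as often as the array and lacked a symbol more often, 51.5% against 20.3%.

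A gene read by several probe sets offers a measure that the rule did not use. The 57 members with 1 symbol belonged to 55 genes, and 39 of these genes had other probe sets on the array, 78 in all. Of the 78, 2 were above 300 on all 8 exosome arrays, or 2.56%, against 1.18% of the other 34810 probe sets with 1 symbol. Both belonged to Phgdh. In exosomes the 78 had a median signal of 68.9, against 75.9 for the other probe sets, and 64 of them exceeded background on 0 of 8 exosome arrays. Most of the array was also dark there, since 6.81% to 10.9% of all probe sets exceeded background on an exosome array. The share on 0 of 8 arrays was not taken over all probe sets. The 78 were below 50 on all 8 cell arrays in 62 cases, or 79.5% against 58.6%.

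Stox2 and Trim2 had the most other probe sets, 5 each. The Stox2 member 1447624_s_at read 606 to 1829 in exosomes, and its other probe sets had median exosome signals of at most 163. Trim2, a RING-type ubiquitin ligase, was represented by 1459860_x_at, with signals of 760, 753, 415 and 476 in norm exo and 353, 720, 398 and 319 in oxi exo. The other 5 Trim2 probe sets had medians of 29.8 to 79.8 and exceeded background on 0 of 8 exosome arrays. For both genes, then, the member was the only probe set above 300 on all 8 exosome arrays.

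Nrxn3, Tmed5, Ago3 and Fahd2a had 4 other probe sets each. Those of Nrxn3 had medians of 10.7 to 121 and exceeded background on no exosome array. Ago3 was less isolated, since 1441063_at read 233 to 538 in exosomes and was above background on all 8 arrays, while the other 3 had medians of 17.7 to 110. Cxcl1, with 2 others, was similar: 1441855_x_at read 293 to 728 and 1419209_at 61.6 to 121. Of the Fahd2a probe sets, 1431190_x_at and 1453795_at had medians of 288 and 278 and exceeded background on 6 and 4 exosome arrays, and the remaining ones had medians of 26.2 and 11.8.

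Tmed5, Polr2e and Ccdc12 showed the opposite arrangement between probe sets of the same gene. Tmed5 encodes a p24 protein of vesicle transport in the secretory pathway. Its member 1445343_at read 394 to 548 in exosomes and 1.9 to 13.8 in cells. The Tmed5 probe set 1424574_at read 52.1 to 214 in exosomes and 851 to 994 in cells, and 1424573_at read 17.2 to 94.4 and 336 to 547. For Polr2e the member read 330 to 556 in exosomes and 17.4 to 31.7 in cells, whereas 1417138_s_at read 15.0 to 169 and 450 to 631. The Ccdc12 member read 326 to 559 in exosomes and 25.0 to 49.5 in cells, and 1419803_s_at read 111 to 456 and 715 to 977. In these 3 genes the cells did give strong signals, but through a different probe set. Whether the probe sets of a gene read different transcripts or different molecules was not tested.

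**Figure D3:**
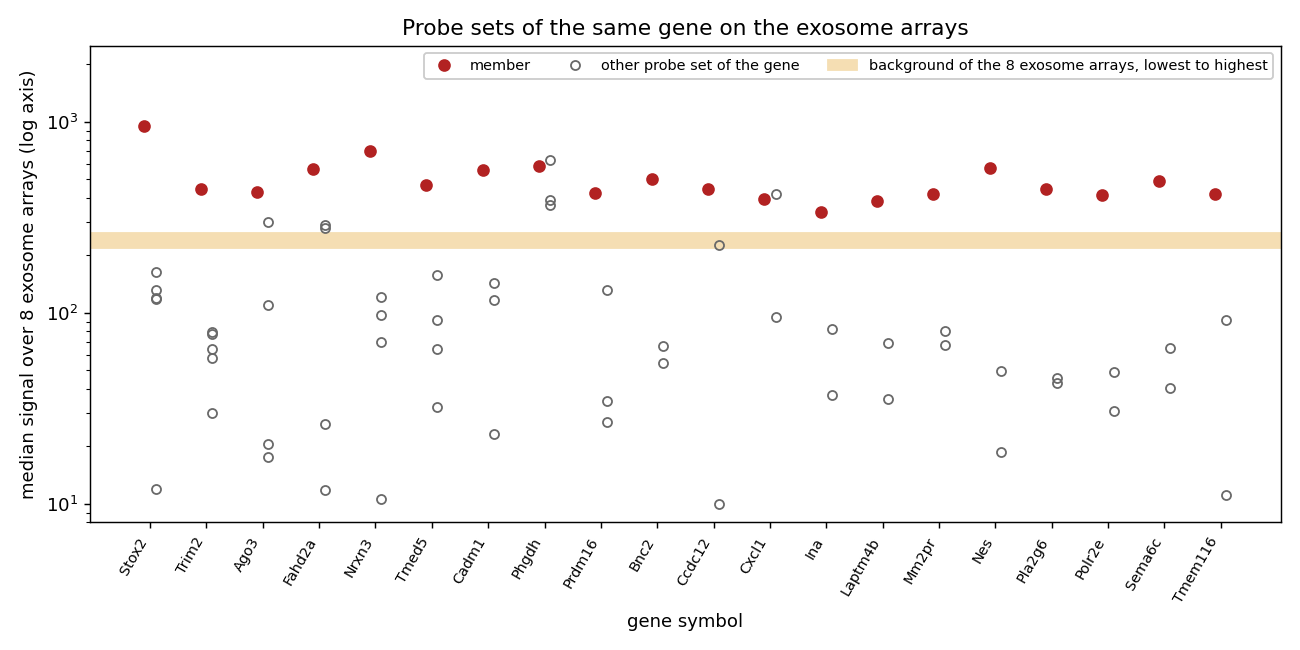
Median signal over the 8 exosome arrays (log axis) of members (filled) and of the other probe sets of the same gene (open), for the 20 genes with the most other probe sets. The band spans the background of the 8 exosome arrays, 218 to 262, and most open points lie beneath it while all members lie above.

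**Figure D4:**
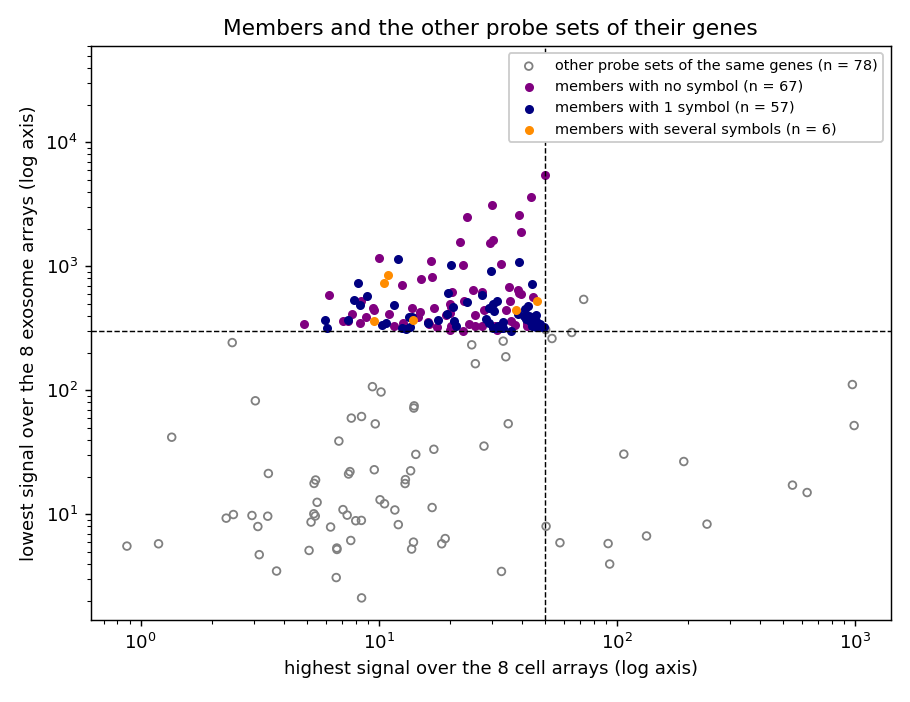
Lowest signal over the 8 exosome arrays against highest signal over the 8 cell arrays (log axes) for the 130 members, coloured by annotation, and the 78 other probe sets of their genes (open). Dashed lines mark 300 and 50, and 2 open points lie above the exosome line.

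Among probe sets with exactly 1 symbol, only Orly had more than 1 member. Orly is a long non-coding RNA gene of the Y chromosome, with 4 probe sets. In 1433283_s_at the signals were 1713, 1189, 1629 and 1675 in norm exo and 2256, 921, 1674 and 2514 in oxi exo. In 1454437_at they were 918, 786, 822 and 823 in norm exo and 766, 810, 730 and 816 in oxi exo. In 1433016_s_at they ran from 584 to 971. The fourth, 1433282_at, read 243 to 598 and was above background on all 8 exosome arrays. On the cell arrays the 4 read at most 29.5, so the probe sets of this gene were alike in being bright in exosomes and dark in cells.

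Phgdh, which catalyses the first committed step of serine synthesis, also had other probe sets above background in exosomes. It had 4 probe sets, all _x_at. The member 1437621_x_at read 814, 784, 618 and 595 in norm exo and 583, 327, 422 and 576 in oxi exo. Of the others, 1426658_x_at read 542 to 1006, 1454714_x_at 309 to 565 and 1456584_x_at 262 to 625. All 4 were above background on all 8 exosome arrays, and their cell signals of 14.1 to 72.6 straddled the limit of 50. The member gene 4930563E22Rik had 1 other probe set, 1447028_at. It read 250 to 420 in exosomes, above background on all 8 arrays, and 18.6 to 33.4 in cells.

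Families of near-identical genes contributed several members. Speer genes, a rodent family expressed in testis, had 11 probe sets, of which 3 were members. Speer8-ps1 was carried by 2 of these, alone by 1447303_at and with 3 other symbols by 1431294_at. The 1429993_s_at set, assigned to Gm10471, Gm7347, Gm5862 and Speer4b, read 849 to 1911 in exosomes, whereas 1429992_at for Speer4b had a median of 129. Of the 2 probe sets for Astx genes, amplified spermatogenic transcripts of the X chromosome, 1444668_at was a member and read 737 to 2082. The Psg family had 12 probe sets with 1 member, Psg28. Of the 31 Vmn1r probe sets, Vmn1r148 was the only member. For such families the copy that bound the probes cannot be told apart.

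Lce1 genes, a cluster that encodes late cornified envelope proteins of the skin, had 13 probe sets and 2 members. Lce1i, read by 1420741_x_at, had signals of 722, 889, 1067 and 1023 in norm exo and 1243, 788, 940.5 and 2095 in oxi exo. Lce1h, read by 1449959_x_at, had 573, 775, 475 and 535 in norm exo and 639, 657, 662 and 465 in oxi exo. The lowest exosome signal of the other 11 was 75.0 or less. The 2 genes lie in the same cluster, and their promoters are printed here to show how alike neighbouring copies are. Each spans 250 bases before and 50 after the RefSeq start on GRCm38.p6, on the minus strand, at chr3:92765016-92765315 for Lce1h and chr3:92778850-92779149 for Lce1i. Capitals mark the letters ATAAAAGG.
Lce1h: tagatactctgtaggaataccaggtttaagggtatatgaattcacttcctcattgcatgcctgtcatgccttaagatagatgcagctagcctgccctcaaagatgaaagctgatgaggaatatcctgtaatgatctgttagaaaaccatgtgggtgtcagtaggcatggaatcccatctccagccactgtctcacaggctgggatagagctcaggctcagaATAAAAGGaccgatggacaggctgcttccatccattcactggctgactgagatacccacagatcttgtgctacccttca
Lce1i: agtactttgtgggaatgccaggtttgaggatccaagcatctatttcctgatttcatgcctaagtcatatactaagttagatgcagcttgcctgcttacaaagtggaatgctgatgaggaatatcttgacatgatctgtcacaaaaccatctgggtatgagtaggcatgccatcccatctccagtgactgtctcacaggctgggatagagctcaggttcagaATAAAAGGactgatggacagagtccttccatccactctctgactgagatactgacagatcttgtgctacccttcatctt

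Aligned, the promoters shared 248 identical bases with 12 gap positions. ATAAAAGG, searched on both strands, began 29 bases before the start in both. It was present in 10 of 13 Lce1 promoters, in 3 of 54 promoters of member genes, or 5.56%, and in 577 of all 32851 promoters, or 1.76%. Promoters were at hand for 44 member genes. Lce1h and Lce1i, in which the letters were marked, are themselves member genes. The share among member promoters was thus partly fixed by that choice and is no measure of enrichment. The match describes letters only, and the array does not read promoters.

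Array background differed between the compartments in the same direction as the members. Background on exosome arrays was 13.2 times that on cell arrays under normal conditions and 16.9 times with H2O2. The 9 probe sets of the spiked hybridization controls were 17.3 and 20.8 times brighter on exosome arrays. The members' median ratio of 51.4 exceeded both, and the lowest, 12.3, did not. The rule itself picked probe sets with high exosome and low cell signals, which makes their ratios high by selection. The comparison is thus a description and no measure of signal beyond background.

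All 130 members necessarily lay above background on all 8 exosome arrays, because the limit of 300 exceeds the highest background, 262. The lowest ratio to background had a median of 1.69 over members, and it exceeded 2 for 44 of them. On cell arrays 48 members were below background on all 8, 82 were above it on at least 1 and 19 were above it on all 8. After scaling to the spiked controls, 74 of the 130 still had every exosome array above every cell array, and 0 had every exosome array below every cell array. The part of background or of related sequences in these signals was not tested.

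Together the members took 1.57% to 1.97% of the summed signal of a norm exo array and 1.94% to 2.50% of an oxi exo array. On cell arrays they took 0.0201% to 0.0339%. The members varied between replicates about as much as other bright probe sets did: the median coefficient of variation was 17.8% (norm exo) and 18.4% (oxi exo) for them and 18.7% and 23.0% for the 627.

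H2O2 left the 130 without a call in exosomes. The rule asked for a signal above the exosome limit in both conditions. A probe set that H2O2 moved across this limit, up or down, was therefore left out beforehand. The missing calls and the range of changes describe the members only and cannot show that the transcripts were insensitive to H2O2. In the paired limma fit over all probe sets, 0 members rose and 0 fell at an adjusted p of 0.05, against 0.0311% of all probe sets higher and 1.7% lower in oxi exo. At an unadjusted p under 0.05, 9 members were higher and 8 lower, next to 3.92% and 5.83% of all probe sets. The median log2 change was 0.09 over the members and 0.06 over all probe sets. Changes ran from -0.85 to 0.70, and the change was above 0 in 82 of the 130, next to 53.4% of all probe sets. All 4 oxi exo arrays lay above all 4 norm exo arrays in 5 members and below them in 5, where 2.48% and 4.09% of all probe sets did so.

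The largest decrease was in 1442420_at. It read 830, 570.5, 586 and 797 in norm exo and 351, 387, 341 and 450.5 in oxi exo, without overlap. Its log2 change was -0.85 (SE 0.23, adjusted p = 0.0971 in limma). The largest increase was in 1434280_at, which read 1053, 1486, 1757 and 1804 in norm exo and 2374, 1740, 2409 and 3443 in oxi exo. The log2 change was 0.70 (SE 0.20, adjusted p = 0.118 in limma), with all 4 pairs higher. In 1458382_a_at the log2 change was 0.69 (adjusted p = 0.197 in limma), higher in 3 of 4 pairs. Without replicate 3 of both groups it was 0.96, with an adjusted p of 0.0204 in limma, the only member then called.

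Median changes were close to 0 in every suffix and annotation class. The median log2 change was 0.10 in the 105 _at members, 0.16 in the 4 _a_at, 0.08 in the 5 _s_at and 0.06 in the 16 _x_at. It was 0.08 in members with 1 symbol and 0.11 in those without a symbol.

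Many bright probe sets outside the rule fell. Of the 627, 282 fell and 0 rose, with a median log2 change of -0.67. Of the 471 that were above 300 on all 16 arrays, 273 fell, with a median of -1.11. Ribosomal protein probe sets, for example, had a summed signal of 234466 to 358841 on norm exo arrays and 63207 to 129858 on oxi exo arrays. In the same preparations the members had a median change of 0.09, and the difference between the sets was not tested because their signals defined them.

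The members' place among all probe sets differed between the conditions. Their median percentile was 97.6, 97.7, 98.3 and 98.2 in norm exo and 98.9, 98.6, 98.8 and 99.1 in oxi exo, without overlap. Quantile normalization, which fixes the distribution of every array, called 15 members higher and 0 lower, beside 0.173% and 0.79% of all probe sets. Applied to the exosome arrays alone, it called 24 higher and 0 lower, beside 0.258% and 0.608%, and the 15 were among the 24. The median change of the members was then 0.65 and 0.60, against 0.04 and 0.03 over all probe sets. Among the 15 were Lrrc19 with a log2 change of 1.21 (SE 0.20) and 1434280_at with 1.19 (SE 0.19), both with an adjusted p of 0.0103 in limma. The size of the change and the count of higher calls thus depend on whether arrays are matched by their trimmed mean or by their whole distribution. With the trimmed mean, the median change of the members, 0.09, was close to that over all probe sets, 0.06.

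In cells the members lay near background, and H2O2 gave few calls. Phgdh rose and 6 members fell in limma, which is 0.769% and 4.62% of the members next to 4.31% and 5.51% of all probe sets. At an unadjusted p under 0.05, 2 were higher and 27 lower, next to 8.15% and 14.3%. All 4 oxi cell arrays lay above all 4 norm cell arrays in 1 member and below them in 13, where 6.38% and 9.72% of all probe sets did so. The median log2 change was -0.46 over the members and -0.15 over all probe sets. With scaling to the spiked controls these medians were -0.16 and 0.15, and with quantile normalization -0.11 and 0.00, so the sign over all probe sets depends on the scaling. Background moved the same way, from 14.9 to 20.8 on norm cell arrays to 13.3 to 16.1 on oxi cell arrays, and the mean signal of the spiked controls fell from 792 ± 56.8 to 645 ± 48.4 (SD, n = 4). Their part in the members' changes was not tested.

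Phgdh read 16.1, 14.1, 24.2 and 20.8 in norm cell and 47.4, 32.7, 39.5 and 48.6 in oxi cell, without overlap. The log2 change was 1.17 (SE 0.22, adjusted p = 0.0056 in limma), with all 4 pairs higher. The other Phgdh probe sets gave 0.73 for 1426658_x_at (adjusted p = 0.0211), 0.85 for 1454714_x_at (adjusted p = 0.0289) and 0.30 for 1456584_x_at (adjusted p = 0.355). In exosomes the member gave -0.59 (adjusted p = 0.425), and the difference from cells, -1.76 on the log2 scale, had an adjusted p of 0.0632 in limma. The exosome changes of the other Phgdh probe sets were 0.28, 0.03 and -0.21, in the same order, and their differences from cells had adjusted p-values of 0.643, 0.393 and 0.616 in limma. The opposite sign of the compartments was thus not shared by 1426658_x_at and 1454714_x_at.

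The 6 that fell in cells were 2 non-coding RNAs and 4 probe sets without a symbol. Gm11110, a long non-coding RNA, read 43.9, 40.8, 37.6 and 39.7 in norm cell and 29.4, 27.2, 20.8 and 21.3 in oxi cell, a log2 change of -0.73 (SE 0.19, adjusted p = 0.0295 in limma). Its other probe set, 1441105_at, was not dark in cells. That set read 174 to 191 in norm cell and 110 to 142 in oxi cell, without overlap, and 26.7 to 116 in exosomes. The other non-coding RNA, 3110021A11Rik, changed by -0.89, and 1432683_at, 1439920_at and 1433163_at changed by -1.13, -1.24 and -1.45. The last, 1432651_at, read 29.7, 18.5, 26.9 and 30.7 in norm cell and 19.1, 8.2, 12.2 and 14.7 in oxi cell. Adjusted p-values of the 6 in limma were 0.0267 to 0.0492. Each was lower in all 4 pairs. Except for Gm11110, each was at or below background on at least 1 oxi cell array, and 1439920_at on all 4. The calls were not stable. Without replicate 1 or 2 of both groups 0 of the 6 were called, without replicate 3 only 1433163_at and without replicate 4 only 3110021A11Rik. Without the replicate block 3 of the 6 were called, and 1432651_at, 1433163_at and 1439920_at had adjusted p-values of 0.0508, 0.0817 and 0.0518 in limma. None of the 6 was called with quantile normalization or with scaling to the spiked controls.

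**Figure D5:**
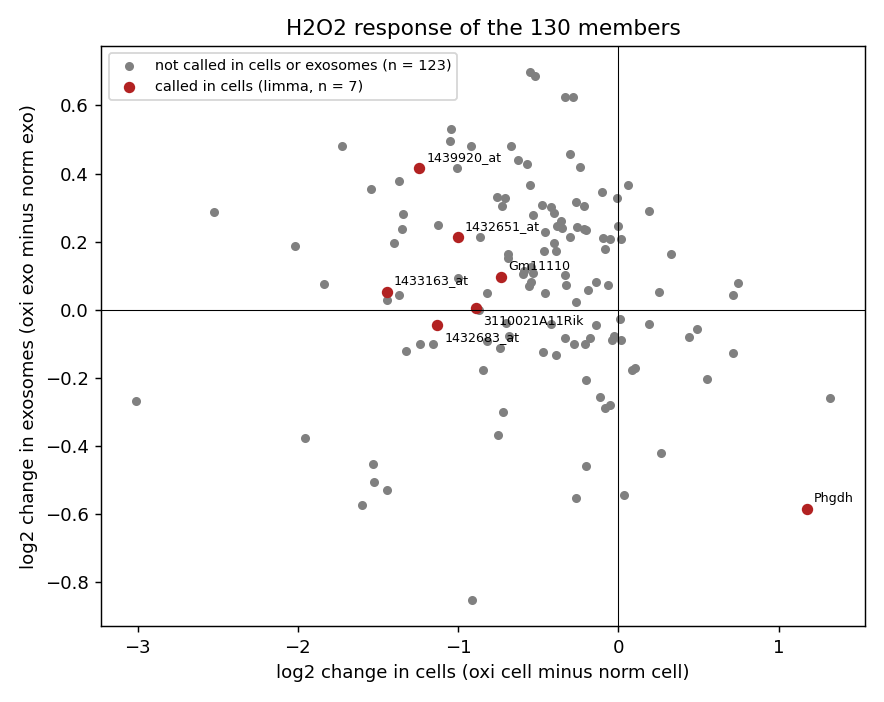
Log2 change with H2O2 in exosomes (oxi exo minus norm exo) against that in cells (oxi cell minus norm cell) for the 130 members, n = 4 arrays per group. Red points are the 7 members called in cells by limma. Changes in exosomes stayed between -0.85 and 0.70, and Phgdh rose in cells with a change of -0.59 in exosomes.

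The response in exosomes was also set against that in cells for each member. In a limma fit on the within-pair differences, 0 members were higher and 0 lower, next to 0.0933% and 1.47% of all probe sets. At an unadjusted p under 0.05, 22 were higher in exosomes relative to cells and 2 lower, next to 6.67% and 6.55%. The median difference was 0.63 on the log2 scale over members and 0.25 over all probe sets. Scaled to the spiked controls, these medians were 0.36 and -0.02. The smallest adjusted p, 0.0618, belonged to 1439920_at. It read 527, 607, 777 and 793 in norm exo and 859, 764, 1071 and 892 in oxi exo. In cells it read 15.0, 19.7, 35.6 and 17.7 in norm cell and 5.8, 8.0, 14.0 and 9.3 in oxi cell. Its difference of 1.66 rested on cell signals near background.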

How the data were processed

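Total RNA of 8 exosome and 8 cell samples was measured on Affymetrix mouse arrays. The deposited values are MAS5.0 signals (intensity, linear, background-subtracted), made by the authors with GCOS 1.2, per the labels, and scaled to a trimmed mean of 100 (2% trimmed at each end). No detection calls were used, and the number of arrays limits the precision. The 64 control probe sets were left out, and 0 columns belonged to no sample. Gene names came from the platform annotation and biotypes from RefSeq. The members and lists were chosen with earlier results of these data known.

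Log2 signals were fitted with limma 3.58.1 (R 4.3.3, with a trend in the prior variance) and a block for replicate number, as the study's methods name a paired test, and Benjamini-Hochberg adjustment over 45037 probe sets at 0.05. The script was tested on simulated data. Tables used Python 3.11.15, pandas 2.3.3 and scipy 1.17.1, and promoters were aligned with biopython 1.88.

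Named were the 12 brightest members, members called in any contrast (up to 8 per direction), 5 probe sets either side of each threshold, genes with several members, the 6 genes with most other probe sets and members of a list. Other genes were named after their values were seen.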

Additional observations from a re-analysis of the deposited data

Results flagged for a closer look

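In the 12 brightest members, the members called in cells, the members' share of the signal and the array background, 84 groups of 4 arrays were examined for an array far from the other 3, a gap that chance gives in about 1 in 20 groups, and 2 were found. In 1437534_at, oxi exo replicate 2 read 3135, whereas the other 3 read 4830 to 5132, a gap of 0.877 of the range on the log2 scale. In 1457657_at, norm cell replicate 3 read 10.0, whereas the other 3 read 1.26 to 1.74, a gap of 0.845 of the range.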

How the results depend on the processing

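The number of members followed the thresholds: 61 at above 400 and below 40, 407 at above 200 and below 50, and 150 to 158 without each replicate in turn, which included all 130. Quantile normalization with the same thresholds gave 86 (43 shared). Division of each array by its background, with limits of above and below 1, gave 85 (48 shared). With scaling to the spiked controls both limits were dropped. The condition was then only a lowest exosome signal above the highest cell signal, and it gave 402 (74 shared). At above 400 and below 40, 0% were _a_at. Of the other probe sets of members' genes, 7 exceeded 200 on all 8 exosome arrays, and 7 exceeded 300 with quantile normalization. In exosomes the higher calls came to 15 with quantile normalization, 24 with it on exosomes alone (chosen after seeing the data), 3 with signals floored at background (1.13% of all probe sets tested) and 0 to 1 without each replicate (1458382_a_at without replicate 3). The lower calls were 1 with log2(signal + 100), 1 with a filter on low signals and 1 with the floor (2.22%, 4.15% and 14.7% of all), each being 1442420_at. In cells the higher calls were 2 with quantile normalization of the cells alone, the spiked controls, the filter or the floor (4.61%, 14.3%, 10.3% and 10.4% of all), and 0 with the methods' paired test. The lower calls in cells were 0 with either quantile normalization, the spiked controls or the paired test, 3 with log2(signal + 100), 8 of 71 tested with the filter and 22 of 69 tested with the floor (4.25%, 13.9% and 16.4% of all). They were 0 without replicate 1, 3 without replicate 2, 2 without replicate 3 and 1 without replicate 4, of which 0, 0, 1 and 1 were among the 6. The paired test gave, unadjusted, 9 higher and 5 lower in exosomes and 2 higher and 15 lower in cells. For exosomes minus cells the higher calls were 1 with the filter and 41 with the floor (0.364% and 17.7% of all), and the lower calls 1 and 3 (3.76% and 7.20%). Where no cause is given, the cause was not tested. Phgdh passed in cells under 11 of 12 alternatives. Same-numbered arrays did not deviate together (correlations of -0.0164 to 0.0224 in exosomes and -0.00242 to 0.00861 in cells). Without the replicate block the calls stayed at 0 and 0 in exosomes and became 1 and 4 in cells, 3 of the 4 being among the 6. Near background, fold changes in cells are uncertain.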
